A study of Mus musculus with 11 samples.

Results

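The RING1B peaks of mouse embryonic stem cells (ESCs) that share no base with a CBX7 peak are described here. A peak is a region where DNA fragments pulled down by chromatin immunoprecipitation (ChIP-seq) pile up. Of 4180 RING1B peaks, 419 overlapped no CBX7 peak and 3761 did. The 419 were selected on the overlap of RING1B and CBX7 peaks, so their lack of CBX7 is no result. The smallest overlap with CBX7 among the peaks outside the set was 247 bp. The nearest CBX7 peak to any of the 419 was 55 bp away, and 27 of the 419 had 1 within 5 kb.

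All samples came from E14Tg2A ESCs, grown without feeder cells in serum with leukemia inhibitory factor. CBX6 was mapped with an anti-HA antibody in cells whose own Cbx6 gene carries a 3×HA tag, inserted by genome editing and selected as single-cell clones, with 2 replicate lists of 21865 and 5103 peaks. CBX7 (5081 peaks) and RING1B were each mapped once, with antibodies against the proteins themselves; whether these were the tagged or the parental cells is not given in the sources used here. RNA-seq compared ESCs infected with lentiviruses carrying a control shRNA (shCtl) or targeting Cbx6 (shCbx6), with 2 libraries each. The study had 2 shRNAs against Cbx6, and which of them each shCbx6 library carried is not given in the sources used here, so a different hairpin cannot be told apart from other differences between shCbx6 replicates. Controls of the ChIP-seq (anti-HA in untagged cells, and IgG) were not analysed here. The labels do not say whether replicates came from separate cultures, so p-values measure the spread between these libraries, which may be technical.

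RING1B and its relative RING1A are the ubiquitin ligases of Polycomb repressive complex 1 (PRC1), each complex holding one of them, and place ubiquitin on histone H2A. In canonical PRC1 a CBX protein such as CBX7 binds trimethylated lysine 27 of histone H3, whereas variant PRC1 complexes carry RYBP or YAF2 in its place. One variant complex, PRC1.6, holds PCGF6, L3MBTL2, E2F6 and the pair MGA and MAX, and is known for keeping germline genes silent in ESCs. MGA with MAX binds the E-box CACGTG, and E2F6 binds the element TTCCCGCC. The E-box is shared by many other basic helix-loop-helix factors, among them MYC, USF and TFE proteins.

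These letters were found in many of the 419 peaks. Windows from germline gene promoters and from peaks with the longer E-box TCACGTGA are shown first, because the description returns to them. Each runs 5′ to 3′ in the direction of the nearest annotated transcript, was read from the mm9 genome, and has the E-box, the longer E-box or the E2F element (on either strand) in capitals. The germline windows lie 216 bp (Dazl), 54 bp (Fkbp6), 221 bp (Mael), 158 bp (Mov10l1), 74 bp (Slc25a31), 117 bp (Stk31) and 244 bp (Tex11) upstream of a transcription start, as measured at the motif nearest the peak centre. The Tdrd12 motif lies 189 bp downstream of a start, in an intron. The Dazl window also lies in an intron of an annotated transcript, and the other upstream windows are intergenic. Their positions are chr17:50432364-50432465 (minus strand), chr5:135825916-135826045 (minus), chr1:168169063-168169128 (minus), chr15:88813148-88813213 (plus), chr3:40512670-40512735 (plus), chr6:49345453-49345518 (plus), chr7:36322460-36322525 (minus) and chrX:98255216-98255283 (minus).
Dazl: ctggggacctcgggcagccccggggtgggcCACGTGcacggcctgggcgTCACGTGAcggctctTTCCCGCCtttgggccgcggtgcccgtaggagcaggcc
Fkbp6: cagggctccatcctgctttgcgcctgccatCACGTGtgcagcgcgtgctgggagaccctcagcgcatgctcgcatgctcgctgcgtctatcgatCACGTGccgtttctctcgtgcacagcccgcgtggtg
Mael: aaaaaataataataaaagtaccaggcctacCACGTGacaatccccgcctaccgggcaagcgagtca
Mov10l1: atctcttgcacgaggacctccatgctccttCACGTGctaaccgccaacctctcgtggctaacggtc
Slc25a31: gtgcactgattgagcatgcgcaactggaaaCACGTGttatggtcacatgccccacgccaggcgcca
Stk31: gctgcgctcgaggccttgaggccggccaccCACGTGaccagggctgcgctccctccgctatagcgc
Tdrd12: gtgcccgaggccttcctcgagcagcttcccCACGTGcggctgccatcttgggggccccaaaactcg
Tex11: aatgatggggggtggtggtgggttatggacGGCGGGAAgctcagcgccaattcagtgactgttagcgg
The Dazl window held an E-box, the longer E-box and the E2F element within 102 bases, and the Fkbp6 window held 2 E-boxes within 130 bases.

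Windows with the longer E-box from peaks at other genes are shown to let the flanks be compared. They are from Dvl2, a transducer of WNT signalling (chr11:69813940-69814096, plus strand), Sppl3, an intramembrane protease (chr5:115461049-115461134, plus), and Spns1, a lysosomal lipid transporter (chr7:133516680-133516759, minus). The Dvl2 and Sppl3 windows are intergenic, 76 and 63 bp upstream of a start, and the Spns1 window lies in an annotated intron, 293 bp upstream of a Spns1 start.
Dvl2: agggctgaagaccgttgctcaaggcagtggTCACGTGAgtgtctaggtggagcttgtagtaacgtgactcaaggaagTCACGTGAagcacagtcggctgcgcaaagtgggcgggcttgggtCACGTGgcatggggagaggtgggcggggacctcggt
Sppl3: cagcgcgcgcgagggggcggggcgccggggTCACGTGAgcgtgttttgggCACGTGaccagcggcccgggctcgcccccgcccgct
Spns1: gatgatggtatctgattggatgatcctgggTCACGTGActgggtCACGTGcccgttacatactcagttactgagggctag
In each of these 3 windows a marked motif, the longer E-box or the E-box, lay near the middle of the RING1B peak. The nearest was 2 bp (Dvl2 and Spns1) and 17 bp (Sppl3) from its centre.

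The RING1B peaks without CBX7 were low and narrow within the RING1B list, which is given as a description since the 2 lists are not independent. Their MACS score, which ranks how far a peak stands above background, ranged from 50.05 to 532.2 with a median of 75.59. The median score of the peaks with CBX7 was 510.06. The median width was 1340 bp against 2425 bp. Because of this gap, shares are also given within the peaks that scored under 100, which were 290 of the 419 and 501 of the 3761.

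Most of these peaks lay at gene starts. Of the 419, 311 lay within 2.5 kb of an annotated transcription start (74.2%, 95% Wilson interval 69.8 to 78.2; intervals here and below cover counting error only). The share was 82.2% (80.9 to 83.3) for RING1B peaks with CBX7. In the lower score range the shares were 69.3% (63.8 to 74.3) and 74.7% (70.7 to 78.3), and the intervals overlapped. The peak centre fell in an intron in 114 cases, in a coding exon in 85, in an untranslated region in 80, in a non-coding exon in 10 and between genes in 130. The 1 kb windows around the centres had a median GC content of 58.5% and a median ratio of observed to expected CpG of 0.663. The values were 62.3% and 0.710 for RING1B peaks with CBX7, and 54.8% and 0.549 for windows around all 22322 protein-coding gene starts.

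E-boxes were more frequent in the RING1B peaks without CBX7. The 6 bases CACGTG stood in the central 1 kb of 167 of the 419 peaks (39.9%, 35.3 to 44.6), against 702 of 3761 peaks with CBX7 (18.7%, 17.5 to 19.9) and 17.0% of protein-coding starts. In 73 of the 419 (17.4%, 14.1 to 21.3) the window held 2 or more E-boxes, against 2.45% (2.00 to 2.99) of the peaks with CBX7. The longer form TCACGTGA, which contains the E-box and reads the same on both strands, was found in 38 of the 419 (9.07%, 6.68 to 12.2), in 27 of the 3761 (0.718%, 0.494 to 1.04) and in 1.90% of starts. The E2F element TTCCCGCC, searched on both strands, was found in 62 of the 419 (14.8%, 11.7 to 18.5), in 338 of the 3761 (8.99%, 8.11 to 9.94) and in 7.08% of starts. None of the intervals of the 419 overlapped that of the peaks with CBX7. Among peaks that scored under 100, the longer E-box was at 7.59% (5.06 to 11.2) without CBX7 and at 0.798% (0.311 to 2.03) with it, and the E2F element at 12.4% (9.10 to 16.7) and 7.19% (5.24 to 9.79), where the intervals overlapped. An E-box or an E2F element stood in 204 of the 419 (48.7%), and 25 windows held both.

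The intervals of the E-box share overlapped between score ranges, and between peaks at and away from gene starts. In the score range under 100 it was 40.7% (35.2 to 46.4) without CBX7 and 17.6% (14.5 to 21.1) with it. Without CBX7 it was 41.5% (32.1 to 51.6) for scores of 100 to 200 and 28.6% (16.3 to 45.1) for the 35 peaks of 200 and over. Peaks away from starts held an E-box in 42 of 108 cases (38.9%, 30.2 to 48.3) and peaks at starts in 125 of 311 (40.2%, 34.9 to 45.7). With CBX7, 147 of 671 peaks away from starts and 555 of 3090 peaks at starts held one. Leaving out the peaks with CBX7 within 5 kb gave 39.3% (34.6 to 44.2) over 392 peaks.

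E-boxes were densest at the middle of the peaks, although most lay outside the central 200 bp. Of 280 E-boxes, longer forms included, 117 (41.8%) lay within 100 bp of the centre, and the median distance was 133 bp. Within 100 bp of the centre there were 1396 E-boxes per 1000 kb in the peaks without CBX7 and 223 in those with CBX7. The density fell to 708 at 100 to 250 bp, 353 at 250 to 500 bp and 181 at 750 to 1000 bp, where it was 160 with CBX7. The longer E-box had a median distance of 69 bp from the centre over 50 sites, and 37 of these sites lay within 250 bp of a transcription start. E2F elements lay less close to the centre, with a median of 167.5 bp over 68 sites, and their density within 100 bp was 203 per 1000 kb against 89.1. When all words of 8 bases in the central 200 bp were ranked by the difference between the shares of peaks, 6 of the first 10 contained CACGTG. The first was CACGTGAC, in 38 of the 419 peaks (9.07%) and 14 of the 3761 (0.372%). This ranking was made after the shares were seen and carries no test. A match to these letters describes the sequence and does not show that a factor was bound.

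**Figure D1:**
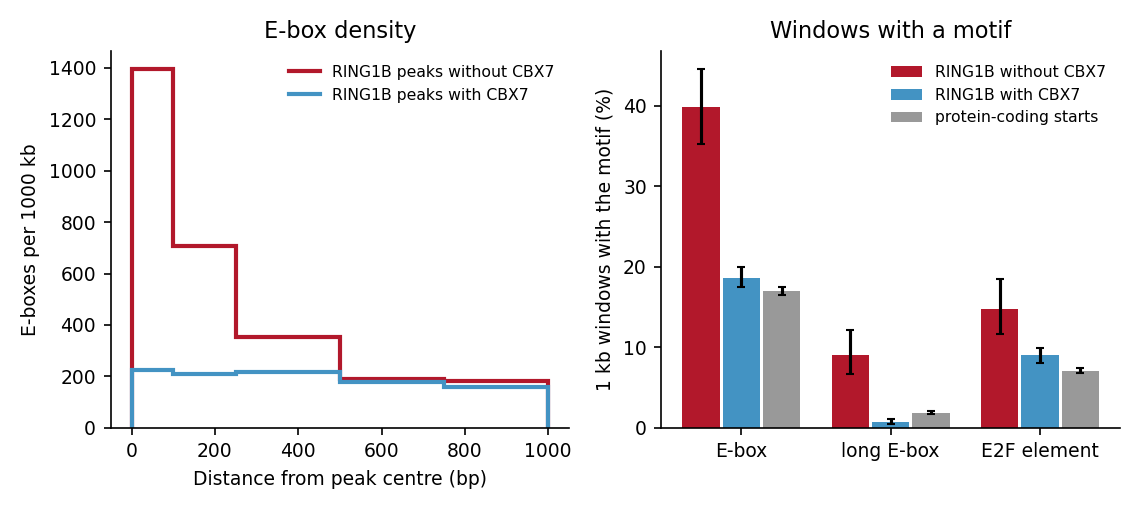
Left, E-boxes (CACGTG) per 1000 kb against the distance from the peak centre in bp, for RING1B peaks without CBX7 (n = 419) and with CBX7 (n = 3761). Right, percentage of 1 kb windows that hold each motif, with 95% Wilson intervals, for the same peaks and for 22322 protein-coding gene starts. E-box density without CBX7 falls from 1396 near the centre to 181 at the edge.

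CBX6 was found at fewer of these peaks than at the other RING1B peaks, most clearly in replicate 2. Of the 419, 207 overlapped a CBX6 peak of replicate 1 (49.4%, 44.6 to 54.2) and 88 overlapped 1 of replicate 2 (21.0%, 17.4 to 25.2). Peaks with CBX7 overlapped CBX6 in 80.1% (78.8 to 81.4) and 85.0% (83.8 to 86.1) of cases. Both replicates had a CBX6 peak at 47 of the 419 (11.2%, 8.54 to 14.6) against 71.4% (69.9 to 72.8) with CBX7, and neither had 1 at 171 (40.8%, 36.2 to 45.6) against 6.33% (5.59 to 7.15). In the score range under 100 the shares were 43.8% (38.2 to 49.5) and 19.3% (15.2 to 24.2) without CBX7, and 62.7% (58.4 to 66.8) and 52.1% (47.7 to 56.4) with it. For scores of 100 to 200, replicate 1 was at 63.8% (53.8 to 72.8) without CBX7 and at 64.3% (60.2 to 68.1) with it, so the lower share of replicate 1 was not seen in that range. Replicate 2 was at 27.7% (19.6 to 37.4) and 70.8% (66.9 to 74.4) there. For scores of 200 and over the shares were 57.1% (40.9 to 72.0) and 17.1% (8.10 to 32.7) without CBX7, and 86.7% (85.4 to 87.9) and 94.1% (93.1 to 94.9) with it. That range is not matched, since scores reached 532.2 without CBX7 and 3233.06 with it. Over all scores up to 532.2, the shares with CBX7 were 70.1% (68.0 to 72.1) and 71.9% (69.8 to 73.8).

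**Figure D2:**
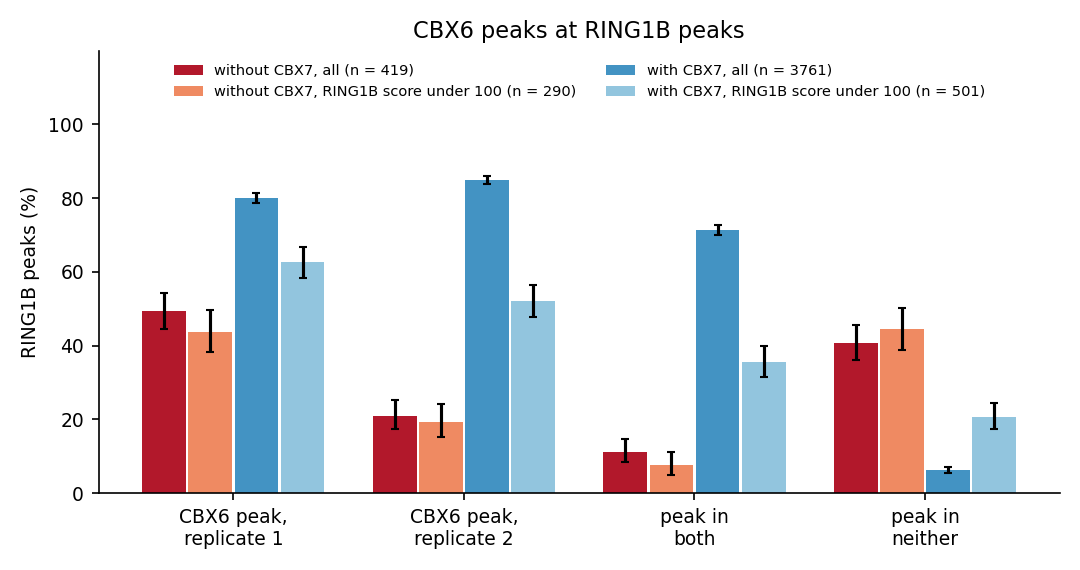
Percentage of RING1B peaks that overlap a CBX6 peak of replicate 1, of replicate 2, of both or of neither, with 95% Wilson intervals. Bars show the peaks without and with CBX7, for all scores and for RING1B scores under 100. Replicate 2 is at 21.0% of the peaks without CBX7 and at 85.0% of those with CBX7.

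The replicate 1 list covers a large part of all promoters, which bears on its share. It had a peak in the 1 kb window of 46.4% of the 22322 protein-coding starts, and replicate 2 in 12.6%. Among the 311 peaks at a start, replicate 1 had CBX6 at 177 (56.9%, 51.4 to 62.3) and replicate 2 at 56 (interval 14.1 to 22.7%), both above these shares of gene starts in general, although whole peaks were counted rather than 1 kb windows. Away from starts, the shares of the 108 peaks were 27.8% and 29.6%. Counting only CBX6 peaks with a score of at least 100, the shares at the 419 were 29.8% and 5.97%. The HA and CBX7 precipitations used another kit than the RING1B one according to the labels, so scores of different lists are not on one scale. Because the 419 were selected for lacking a CBX7 peak, their lower CBX6 shares cannot be told apart from a difference between kits.

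E-boxes were most frequent at the peaks that had CBX6 in replicate 1 alone, with an interval that overlapped none of the other 3 groups. These 160 peaks held an E-box in 88 cases (55.0%, 47.3 to 62.5) and lay at a start in 141 (88.1%, 82.2 to 92.3). The 171 peaks without CBX6 held an E-box in 58 cases (33.9%, 27.2 to 41.3) and lay at a start in 114 (66.7%, 59.3 to 73.3). The 47 peaks with CBX6 in both replicates had E-box and start shares of 31.9% (20.4 to 46.2) and 76.6% (62.8 to 86.4). The 41 peaks with replicate 2 alone had 14.6% (6.88 to 28.4) and 48.8% (34.3 to 63.5). Of the 38 peaks with the longer E-box, 25 were in the replicate 1 list alone, 11 had no CBX6 and 1 each was in both or in replicate 2 alone.

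Chromosome X held more of the RING1B peaks without CBX7 than its part of the RING1B list. Of the 419, 30 lay on X (7.16%, 5.06 to 10.0), against 100 of the 3761 with CBX7 (2.66%, 2.19 to 3.22). Put another way, 23.1% (16.7 to 31.0) of the RING1B peaks on X lacked CBX7, and 9.60% (8.74 to 10.6) of those on autosomes did. Chromosome 14 stood near X, with 27 of 138 (19.6%). CBX6 was at 1 of the 30 X peaks without CBX7 in replicate 1 and at 2 in replicate 2. At the 100 X peaks with CBX7, the shares were 14.0% (8.53 to 22.1) in replicate 1 and 61.0% (51.2 to 70.0) in replicate 2. The replicate 1 list as a whole had 53 peaks on X (0.242% of the list), and it covered 2.58% of X starts against 48.3% of autosomal starts. Replicate 2 covered 4.09% of X starts against 12.9%, CBX7 7.63% against 14.5% and RING1B 9.35% against 13.3%. Few X starts thus had CBX6 in either list as a whole, and what this comes from was not tested. Without X, CBX6 was at 53.0% (48.0 to 57.9) of the remaining 389 peaks in replicate 1 and at 22.1% (18.3 to 26.5) in replicate 2. The E-box was rare on X, at 2 of the 30 peaks (1.85 to 21.3%) and at 11 of the 100 with CBX7 (6.25 to 18.6%). The E2F element was at 7 of the 30 (11.8 to 40.9%) and at 17 of the 100 (10.9 to 25.5%). Both pairs of intervals overlapped.

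The 10 highest of the RING1B peaks without CBX7 lay at genes of several kinds. From the highest score downwards, the first 9 were at Gm4969 (532.2, with its centre 54 bp from that start and the only gene of the expression table in reach being its neighbour Fbxo46), Inhbb (482.52, the subunit that forms activin B), Hmgb3 (445.58, a chromatin protein, on X), Zic5 (421.29, a zinc finger factor of the neural crest), Bmp4 (370.91, a ligand of the BMP pathway), Lamp1 (366.05, a lysosomal membrane glycoprotein), Mfsd1 (353.73, a lysosomal transporter), Vim (335.42, the intermediate filament vimentin) and Ntn1 (333.68, the axon guidance protein netrin). The Ntn1 window also held a CBX7 peak. The tenth (317.14) had no gene of the expression table in reach. Replicate 1 of CBX6 had a peak at 7 of the 10, and replicate 2 at none. The Lamp1 peak held 6 E-boxes, 2 of them of the longer form, the Mfsd1 peak 5 with 3 of the longer form. Both peaks lay at the start of the gene.

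Leaving aside the marker lists of 2 to 5 genes, germline genes had the highest share of any gene list. A gene was assigned a peak that overlapped the stretch from 2.5 kb upstream of its start to its end, and genes with a CBX7 peak in that stretch were kept apart. This gave 316 genes with a RING1B peak without CBX7 out of 21883 with coordinates (1.44%), and 48 more that also had CBX7. For 91 of the 419 peaks no gene of the expression table was in reach. Of 52 germline genes measured, 16 were among the 316 (30.8%), each with the peak at its own start. Dmrtb1 had such a peak together with CBX7, and 8 listed genes had RING1B with CBX7. The list was drawn up with earlier results of these data known.

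The 16 genes act at several steps of germ cell development. Sycp2 and Sycp3 form the axes of meiotic chromosomes, Smc1b, Stag3 and Rad21l are cohesin subunits of meiosis, and Zcwpw1 reads histone marks at recombination sites. Mael, Mov10l1, Tdrd12 and Fkbp6 act in the piRNA pathway, which silences transposons. Dazl is an RNA-binding protein of germ cells, Ctcfl is the testis relative of CTCF, Taf7l is a germ cell subunit of TFIID, and Slc25a31 is an ADP/ATP carrier of sperm. Tex11 and Stk31 are expressed in testis. The 17 peaks at these genes and Dmrtb1 held an E-box in 12 cases (70.6%, 46.9 to 86.7), against 113 of the other 294 peaks at starts (38.4%, 33.1 to 44.1). They held an E2F element in 6 cases (35.3%, 17.3 to 58.7), against 44 of 294 (15.0%, 11.3 to 19.5), and these intervals overlapped. CBX6 of replicate 1 was at 10 of the 16 genes' peaks and of replicate 2 at 2 (Stk31 and Zcwpw1, both also in replicate 1).

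The other lists had few members. Of 234 genes of developmental transcription factor and WNT families, 196 had a CBX7 peak. Only Zic5 and Tbx22 of these families were among the 316, and Dmrtb1, Gata4, Lhx6 and Sox4 had such a peak together with CBX7. Among 355 Zfp genes there were 6, and among 96 genes of ribosomal proteins there were 0. Of the PRC1.6 genes, Hdac2, a histone deacetylase, and Tfdp1, the dimer partner of E2F proteins, were 2 of 10. None of 6 PRC1.1 genes, 10 genes of shared and other variant PRC1, 11 of canonical PRC1 and 11 of PRC2 had a RING1B peak without CBX7. The Hdac2 peak held 2 E-boxes and the Tfdp1 peak 3, and both genes were highly expressed, at 127 and 132 FPKM (Hdac2) and 110 and 117 FPKM (Tfdp1) in the shCtl libraries.

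Genes at these peaks were more often expressed than genes at RING1B peaks with CBX7. FPKM, an RNA level scaled for transcript length and library size, had a median of 2.65 over the 316 genes in shCtl (mean of both libraries), and 39.9% of the genes were under 1 FPKM. For 3145 genes at RING1B peaks with CBX7 the median was 0.182 FPKM and 73.5% were under 1 FPKM. All 21883 genes had a median of 0.987 FPKM and 50.1% under 1 FPKM. The level differed with the E-box. Genes whose own start had the peak showed a median of 6.75 FPKM where the peak held an E-box (118 genes), 19.01 FPKM where it held the longer form (31 of these genes), and 0.723 FPKM without an E-box (170 genes). By CBX6, the medians were 5.46 FPKM with replicate 1 alone (148 genes), 2.01 FPKM with both (43), 0.268 FPKM with replicate 2 alone (18) and 0.436 FPKM with neither (107). The level was thus above that of genes with neither where replicate 1 had CBX6, alone or with replicate 2, whereas the E-box share was above that of peaks with neither in replicate 1 alone. What links these measures was not tested.

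Several genes with the longer E-box at their start were expressed at high levels. Lamp1 was at 178 and 227 FPKM in shCtl, Dvl2 at 33.5 and 40.8 FPKM, Spns1 at 29.4 and 26.9 FPKM, Sppl3 at 26.9 and 29.2 FPKM, and Mfsd1 at 16.7 and 21.3 FPKM. Dvl2, Spns1 and Sppl3 were picked for their motif, after the motif was searched. Of the 29 genes with the longer E-box in a peak at their own start that were tested, 0 differed by 1.5-fold in either direction with groups apart in shCbx6, where 6.36% of all genes tested were higher and 5.92% lower. In limma, 1 of the 29 had an unadjusted p under 0.05, where 11.7% of all genes had.

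The knockdown libraries had less Cbx6 RNA. Cbx6 itself was at 17.4 and 14.9 FPKM with shCtl and at 9.53 and 5.40 FPKM with shCbx6, a ratio of the means of 0.462, with no overlap (limma adjusted p = 0.247). The cells expressed ESC markers, with Pou5f1 at 1359 and 1452 FPKM in shCtl. The summed level of 5 ESC markers was 2411 and 2621 FPKM with shCtl and 1943 and 1892 FPKM with shCbx6, with 4 of the 5 lower in both shCbx6 libraries. For 3 primitive endoderm markers the sums were 0.548 to 0.563 FPKM with shCtl and 0.629 to 0.729 FPKM with shCbx6, for 2 trophectoderm markers 1.48 to 2.14 and 1.74 to 2.43, and for 3 fibroblast markers 45.6 to 55.1 and 36.2 to 46.4, nearly all from Vim. For 3 germ cell markers the sums were higher in both shCbx6 libraries (33.6 and 30.7 FPKM against 25.9 and 21.4 FPKM), with Sycp3 apart between the groups and Ddx4 and Dazl overlapping. Cdx2, Sox17 and Col1a1 were under 0.1 FPKM in both shCtl libraries, and all 3 were higher in both shCbx6 libraries while still low. Cdx2 was at 0.0156 and 0.0615 FPKM with shCtl and at 0.114 and 0.511 FPKM with shCbx6, Col1a1 at 0.0336 and 0.0398 FPKM and at 0.0984 and 0.549 FPKM, and Sox17 at 0.0103 and 0.0204 FPKM and at 0.0540 and 0.0366 FPKM. Thy1 overlapped between the groups, at 1.68 and 1.64 FPKM and at 1.16 and 3.82 FPKM. The part of these shifts in the differences below was not tested, and in bulk RNA fewer cells of a type and less RNA per cell cannot be told apart.

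No gene at a RING1B peak without CBX7 passed the test across all genes when the libraries were compared as groups, without pairing. Of the 316 genes, 199 reached a mean of 1 FPKM in shCtl or in shCbx6 and were tested. In limma with Benjamini-Hochberg adjustment over 11577 genes, 0 of the 199 had an adjusted p under 0.05 (lowest adjusted p = 0.0933), where 11 of all genes had (0.095%). At an unadjusted p under 0.05 there were 37 of 199 (18.6%, against 11.7% of all genes tested), 19 higher and 18 lower in shCbx6, and over all genes 593 were higher and 757 lower. The median log2 fold change over the 199 was 0.02, against -0.01 over all genes tested. With 2 libraries per group, an exact permutation test of a single gene cannot go below p = 0.333. Without shCbx6 replicate 1 the count of limma calls among them was 13 of 200, and over all genes to 397 of 11699.

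By size alone, 24 of the 199 genes were 1.5-fold higher with both shCbx6 libraries above both shCtl libraries (12.1%), where 6.36% of all 11577 genes were. In the other direction 18 were lower (9.05%), where 5.92% of all genes were. For genes at RING1B peaks with CBX7 the shares were 24.9% and 13.7% of 1001 tested. These counts carry no test. In shCtl, 126 of the 316 genes and 2313 of the 3145 at RING1B peaks with CBX7 were under 1 FPKM. Some genes of both sets thus passed the filter only through shCbx6, Fndc3c1 and Taf7l of the 24 among them. Such genes can only be higher, and genes that passed only through shCtl can only be lower, so the filter sets part of these shares. The count of higher genes rested on shCbx6 replicate 2: without it there were 15 of 194 (7.73%, against 5.49% of all genes), and without shCbx6 replicate 1 there were 40 of 200 (20.0%, against 12.0%). Among genes averaging 5 FPKM or more in 1 of the groups, 12 of 125 were higher, where 4.05% of all such genes were, and 9 were lower, where 4.13% were.

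**Figure D3:**
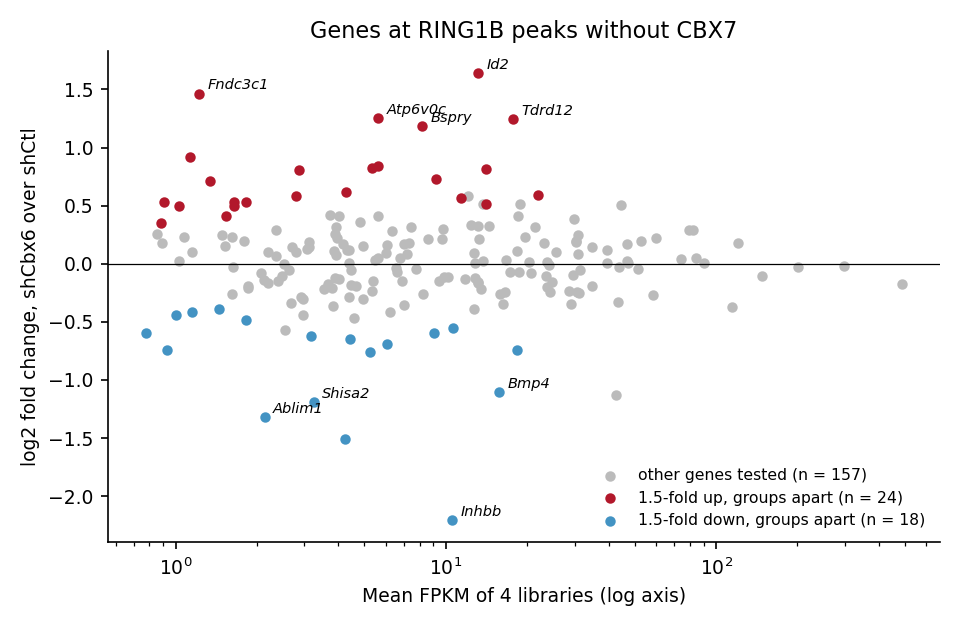
log2 fold change of shCbx6 over shCtl, on the log2(FPKM + 1) scale, against the mean FPKM of the 4 libraries (log axis), for the 199 genes tested. Each point is a gene; 24 genes 1.5-fold up and 18 genes 1.5-fold down with groups apart are coloured, and large changes among the genes named here carry their symbols. Id2 is highest at 1.64 and Inhbb lowest at -2.21.

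The largest differences upwards were at Fndc3c1 and Id2. Id2, an inhibitor of basic helix-loop-helix factors, was at 6.39 and 5.14 FPKM with shCtl and at 15.4 and 25.8 FPKM with shCbx6, 3.58 times as high. Its log2 fold change was 1.64 with an SE of 0.26 (limma adjusted p = 0.125). Both shCbx6 libraries stood well above both controls. Tdrd12 was at 11.1 and 9.01 FPKM and at 21.4 and 29.4 FPKM, with a log2 fold change of 1.24, SE 0.20 (limma adjusted p = 0.129). Bspry was at 4.16 and 5.06 FPKM and at 11.1 and 12.4 FPKM, with a log2 fold change of 1.19, SE 0.15 (limma adjusted p = 0.0941), the lowest adjusted p among the higher genes. Fndc3c1, on X, was near 0 in shCtl (0.203 and 0.123 FPKM) and at 1.56 and 3.01 FPKM with shCbx6. Atp6v0c, a subunit of the vacuolar proton pump, was at 1.92 and 4.14 FPKM and at 8.00 and 8.47 FPKM. Its peak, which held the longer E-box, lay at the start of the neighbouring Amdhd2 and not at that of Atp6v0c, and Amdhd2 overlapped between the groups (11.9 and 15.9 FPKM and 14.1 and 10.6 FPKM). Mafk (2.18 times), a small MAF factor that binds DNA, and Pon2 (2.03 times) completed the 8 with Gpc4 (2.31 times), a cell surface proteoglycan. For Gpc4 shCbx6 replicate 2 set the mean, at 3.47 and 11.3 FPKM with shCbx6 against 3.00 and 3.42 FPKM with shCtl.

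The largest differences downwards included Inhbb and Bmp4, which encode ligands of the TGF-beta family. Inhbb was at 20.2 and 15.6 FPKM with shCtl and at 4.47 and 2.02 FPKM with shCbx6. Its log2 fold change was -2.21 with an SE of 0.31 (limma adjusted p = 0.103). Bmp4 was at 22.4 and 20.7 FPKM and at 13.4 and 6.59 FPKM, a log2 fold change of -1.11 with an SE of 0.31 (limma adjusted p = 0.291). In both genes the 2 groups did not overlap, and shCbx6 replicate 2 was the lower of the pair. Ablim1, an actin-binding protein, was at 3.23 and 3.74 FPKM and at 0.825 and 0.769 FPKM, with the lowest adjusted p of the 199 genes (limma, 0.0933). Shisa2, which holds back WNT and FGF receptors, was at 5.23 and 4.24 FPKM and at 2.91 and 0.601 FPKM. Camk1d, Myl7 and Cers6 were at between 0.531 and 0.573 of the shCtl mean. Of the 10 highest peaks, Inhbb, Bmp4 and Zic5 belonged to genes past 1.5-fold with groups apart. Zic5 was higher, at 4.05 and 2.38 FPKM with shCtl and 5.38 and 5.30 FPKM with shCbx6.

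The germline genes differed in both directions. Of the 12 tested, 4 were 1.5-fold higher with groups apart (Tdrd12, Mael, Zcwpw1 and Taf7l) and 1 was lower (Stag3), where 6.36% and 5.92% of all genes were. Taf7l and Slc25a31 passed the 1 FPKM filter only through shCbx6, at means of 1.29 and 1.04 FPKM against 0.520 and 0.670 FPKM with shCtl. A gene that passes this way can only be higher, so Taf7l adds nothing to that count. None of the 12 had a limma adjusted p under 0.05 when all libraries were compared as groups, without pairing. Mael was at 5.81 and 7.25 FPKM with shCtl and at 8.36 and 15.4 FPKM with shCbx6. Zcwpw1 was at 9.97 and 7.86 FPKM and at 11.2 and 16.5 FPKM. For both, the difference was small in shCbx6 replicate 1 and larger in replicate 2. Taf7l, on X, was at 0.541 and 0.500 FPKM and at 0.657 and 1.92 FPKM. Stag3 was at 24.7 and 21.8 FPKM with shCtl and at 13.3 and 13.6 FPKM with shCbx6 (limma adjusted p = 0.164). Sycp3 was at 16.5 and 14.1 FPKM and at 25.5 and 19.4 FPKM, a ratio of 1.47 that is just under the threshold.

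The remaining germline genes were low or overlapped between the groups. Stk31, Fkbp6, Mov10l1, Dazl, Slc25a31 and Tex11 had ratios from 0.845 to 1.54 with overlapping groups, and Ctcfl, Smc1b, Sycp2 and Rad21l were under 1 FPKM in every library. Without shCbx6 replicate 2, 2 germline genes were higher (Sycp3 and Tdrd12) and 2 lower (Stag3 and Tex11) of 10 tested (5.49% and 7.08% of all genes), so that Tdrd12 and Stag3 stood on the same side with each library left out. Without shCbx6 replicate 1, 7 were higher and 1 was lower of 12 (12.0% and 9.46% of all genes). Without shCtl replicate 1 the counts were again 7 and 1 (7.41% and 7.53% of all genes), and without shCtl replicate 2 they were 4 and 2 (9.60% and 7.22%).

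**Figure D4:**
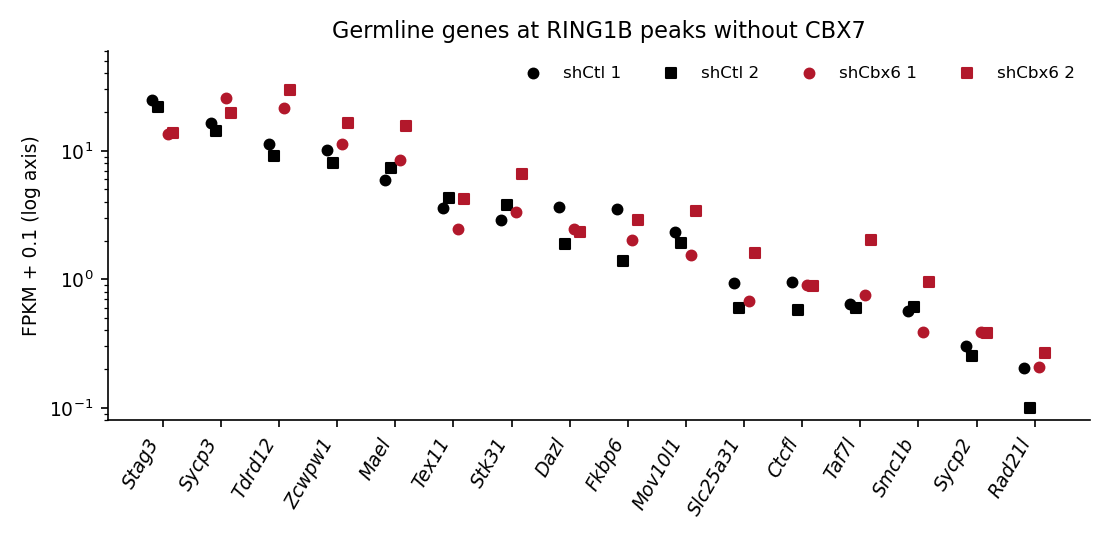
FPKM plus 0.1 (log axis) of the 16 listed germline genes with a RING1B peak without CBX7, in order of their shCtl mean. Circles are replicate 1 and squares replicate 2, black for shCtl and red for shCbx6. Tdrd12 lies higher and Stag3 lower in both shCbx6 libraries.

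Genes on chromosome X made up 6 of the 24 higher genes and 0 of the 18 lower genes. Of the 12 X genes tested at RING1B peaks without CBX7, the 6 were Fndc3c1, Gpc4, Taf7l, Fhl1, Mbnl3 and 2610002M06Rik. Before the filter there were 22 X genes, of which 13 were under 1 FPKM in shCtl. Fndc3c1 and Taf7l passed the filter only through shCbx6, so they could only be higher. X genes were more often higher in general, with 61 of 402 tested (15.2%), and 16 (3.98%) were lower. At RING1B peaks with CBX7, 10 of 22 X genes were higher, and of 368 X genes without RING1B 12.2% were. Of the 79 X genes at RING1B peaks with CBX7, 65 were under 1 FPKM in shCtl. Some of the 22 thus passed the filter only through shCbx6, and their share of higher genes is in part set by the filter. On autosomes, 18 of 187 genes at RING1B peaks without CBX7 were higher and 18 lower (9.63% each). The split by chromosome was made after the values were seen, and what the X values come from was not tested.

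Several well known regulators had such a peak, and for Myc, Ccnd1 and Lefty2 the groups overlapped. Myc was at 33.0 and 30.8 FPKM with shCtl and at 30.4 and 30.8 FPKM with shCbx6, and Ccnd1, which encodes cyclin D1, at 41.5 and 46.6 FPKM and at 37.1 and 50.0 FPKM. Lefty2, an inhibitor of NODAL signalling, was at 62.9 and 39.5 FPKM with shCtl and at 60.3 and 7.78 FPKM with shCbx6, so that 1 library set its mean. Vim was at 53.3 and 43.9 FPKM and at 34.9 and 42.0 FPKM, with both shCbx6 libraries lower but 1 of them near a control. Hdac2 was lower in both shCbx6 libraries (103 and 96.7 FPKM against 127 and 132 FPKM), at 0.772 of the shCtl mean (limma adjusted p = 0.411). Myc, Ccnd1 and Lefty2 were named after their values were seen.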

How the data were processed

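ChIP-seq reads were aligned by the authors with Bowtie (mm9), reads mapping to several places were dropped and peaks were called with MACS. The score of each deposited peak is the authors' MACS score. For RNA-seq the authors used TopHat, again with uniquely mapped reads, and estimated FPKM per transcript with Cufflinks, and the deposited table gives FPKM per gene symbol. Software versions are not given in the sources used here. Dropping reads that map to several places can lower the values of repeats and close gene copies. A peak list holds no read numbers, so ChIP-seq depth is unknown. For RNA-seq, low FPKM values are multiples of the value of 1 fragment, and the most frequent ratio among low values put the libraries at 0.956 to 1.13 times the depth of shCtl replicate 1.

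Overlaps of at least 1 bp were counted with pandas 2.3.3 and numpy 2.4.6 in Python 3.11.15, intervals came from scipy 1.17.1, and matplotlib 3.10.9 drew the plots. Of 23290 entries of the table, 25 carried dates in place of symbols and were left out; the 4 entries that shared a name were among these. Of 23265 symbols, 21149 matched the GENCODE annotation of mm9 by name and 734 by synonym. Differences between shCbx6 and shCtl were fitted with limma 3.58.1 (R 4.3.3; lmFit, eBayes with trend, Benjamini-Hochberg) on log2(FPKM + 1), which understates changes of low genes, for genes with a mean of 1 FPKM or more in 1 of the groups; the step was tested on simulated data first. Motifs were searched on both strands in 1000 bp around peak centres.

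The peaks, gene lists, motifs and alternatives were chosen with earlier results of these data known. Named are listed germline genes and PRC1 or PRC2 genes with such a peak, genes at the 10 highest peaks, limma calls, the 8 largest differences each way of at least 1.5-fold with groups apart and a mean of at least 2 FPKM in the higher group, and Cbx6; others are marked in the text as named later. Some items that these rules select are not reported here.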

Additional observations from a re-analysis of the deposited data

How the results depend on the processing

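With 2 libraries per group and unknown ChIP-seq depth, differences of less than about the spread between libraries could not be seen, and a missing peak does not show a missing protein. Of 68 values recomputed under other settings, 39 stayed within the limits set for them. The count of limma calls among genes at RING1B peaks without CBX7 was 0 under every setting except the replicate block (12 of 199 genes, 6.03%, against 388 or 3.35% of all genes; Ablim1, Bspry, Id2, Inhbb, Stag3 and Tdrd12 among them) and without shCbx6 replicate 1, where the range over left-out libraries ran from 0 to 13; there the lone library of a group is assumed to vary like the other group. Libraries of the same number share only that number in the labels; the deviations from the group means of same-numbered libraries correlated at 0.27 over 11577 genes, and the paired fit is given for that reason alone. The count of genes 1.5-fold higher with groups apart (24 of 199, 12.1% against 6.36% of all genes) was 60 of 301 with no filter on low FPKM (19.9% against 11.8%), 12 of 125 with a mean of at least 5 FPKM (9.6% against 4.05%), 13 of 199 with the replicate block, counting same-numbered pairs both past the fold (6.53% against 4.42%), 12 of 74 with a RING1B score of at least 100 (16.2% against 6.36%), 12 with a threshold of 2-fold (382 of all genes) and 15 to 40 with 1 library left out. The count of lower genes (18) was 9 of 125 with a mean of at least 5 FPKM, 8 of 74 with a RING1B score of at least 100 (10.8% against 5.92%) and 7 at 2-fold (238 of all genes). The median log2 fold change (0.0203) was 0.0149 with a mean of at least 5 FPKM, 0.0247 after quantile normalization, 0.0634 with a RING1B score of at least 100 and -0.0064 to 0.0633 with 1 library left out.

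The share of these peaks with CBX6 in replicate 1 (49.4%) was 29.8% when CBX6 peaks needed a score of at least 100 and 62.0% among RING1B peaks with a score of at least 100. In replicate 2 (21.0%) it was 5.97% with CBX6 scores of at least 100 and 15.0% when CBX6 had to cover at least 0.5 of the RING1B peak. The share at gene starts was 69.5% within 1 kb and 85.3% for RING1B scores of at least 100. The median level in shCtl (2.65 FPKM) was 2.505 and 2.56 FPKM with 1 shCtl library left out, 2.87 FPKM for genes with the peak within 2.5 kb of a start and 3.21 FPKM for RING1B scores of at least 100. Leaving out peaks with CBX7 within 5 kb moved none of these results past its limit. The causes of these shifts were not tested.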
